A study of Homo sapiens with 32 samples.

Results

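HCT116 is a cell line from a human colorectal carcinoma, and the libraries described here come from clones of it that carry no designed deletion. Control clone 3 was compared with control clones 1 and 2, each sampled once on each of RNA extraction days A, B and C, which gave 3 libraries of clone 3 and 6 of clones 1 and 2 out of 26 RNA libraries and 32 samples in the series. The members were taken from the clone and day labels, and no measured value entered that rule. The comparison itself was chosen with earlier results of these data known. All these clones had received Cas9-GFP together with a guide vector that held no guide, were sorted for high GFP, and were grown from single cells in the same medium with serum. Each clone is therefore 1 clonal population, and its 3 libraries are repeat RNA extractions of that population. A p-value between clone 3 and clones 1 and 2 measures the spread between repeat extractions and between clones 1 and 2, and not the spread among clones in general. The other HCT116 libraries were used for side values only. They were control clone 4 (3 libraries, days A to C), the E7 deletion clone (3 libraries, days A to C), 3 18qNE deletion clones (1 library each, day A or B), and on day D 1 library each of clones 1 and 2 and of 2 18qE deletion clones.

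A clone carries forward the genome and the chromatin state of the cell that founded it, so features that pass through cell division are shared by all its cells and absent from sister clones that did not inherit them. Control clones of this kind serve as the baseline against which deletion clones are read, and the comparison asks how far 1 control clone stands from others of the same line, gene by gene. HCT116 is known for strong Wnt signalling through a mutant beta-catenin and for a truncated TGF-beta receptor, and the gene groups described below were chosen with that background.

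Gene counts totalled 13665306, 11777829 and 10059216 in clone 3 on days A, B and C, against 9871667 to 14445320 in clones 1 and 2. Reads outside genes took 8.76% to 12.4% of counted reads in clone 3 and 7.78% to 14.3% in clones 1 and 2. The line's epithelial markers were checked first: of 20 colorectal epithelial genes 10 passed the filter on low counts, and their summed level over all 20 was 3888 to 5170 CPM (each gene's count, scaled to a common library total of gene counts) in clone 3 and 4257 to 5043 CPM in clones 1 and 2. Summed leukocyte markers (13 genes) were at 3.14 to 3.66 CPM in clone 3 and 2.33 to 5.47 CPM in clones 1 and 2, and summed endothelial markers (8 genes) at 4.76 to 7.32 CPM in clone 3 and 5.03 to 9.51 CPM in clones 1 and 2.

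Some libraries stood apart from their labels' partners. The clone 1 library of day A differed from the clone 2 library of day A with a chi-square of 19.9 per gene, whereas the same pair of clones gave 2.37 on day B and 4.90 on day C. The 2 day D libraries labelled clones 1 and 2 did not carry the levels that those clones had on days A to C at several of the genes below. Among the 141 genes that differed at least 2-fold and did not overlap between clone 3 and clones 1 and 2, the day D library of clone 1 lay beyond the 6 libraries towards clone 3 at 75 genes and beyond them the other way at 14, and the day D library of clone 2 at 72 and 19. The 3 libraries of clone 4, a different clone, showed much the same lean, with 58 to 64 genes towards clone 3 and 23 to 25 the other way. The day D libraries of clones 1 and 2 lay within the range of the 6 libraries at 52 and 50 genes, and those of clone 4 at 53 to 58. By these counts the day D libraries were about as far from the days A to C libraries of their own labels as clone 4 was. The cause was not tested. Those day D libraries entered no test.

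Of 14519 genes tested, 791 passed an adjusted p of 0.05 (edgeR quasi-likelihood test with day as a term), a share of 5.45%. Of these, 455 were higher in clone 3 (3.13%) and 336 lower (2.31%). At least 2-fold differences were found at 187 genes (1.29%), 82 higher (0.565%) and 105 lower (0.723%), and at least 4-fold differences at 40 genes, 17 higher and 23 lower. The median log2 change over all tested genes was -0.0054. The 2-fold genes had the same sign on each of the 3 days at all 187, and 99 of them were at least 2-fold on each day. They were chosen from these same libraries, so the shared sign was largely fixed in advance. The same holds in part for their larger shares without overlap, given next. The 3 libraries of clone 3 lay above or below all 6 of clones 1 and 2 at 141 of the 187, against 769 of all tested genes (5.3%, 2.33% above and 2.97% below), and beyond clone 4 as well at 100 of the 187, against 3.37% of all tested genes. No gene's difference depended on the day after adjustment (edgeR test of the interaction, 635 genes or 4.37% at an unadjusted p under 0.05). Among the 187 genes, 19 had an unadjusted p under 0.05 in that test. Clone 3 had 1 library per day, so the test took its spread from clones 1 and 2 alone. It could therefore miss differences that depend on the day.

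**Figure D1:**
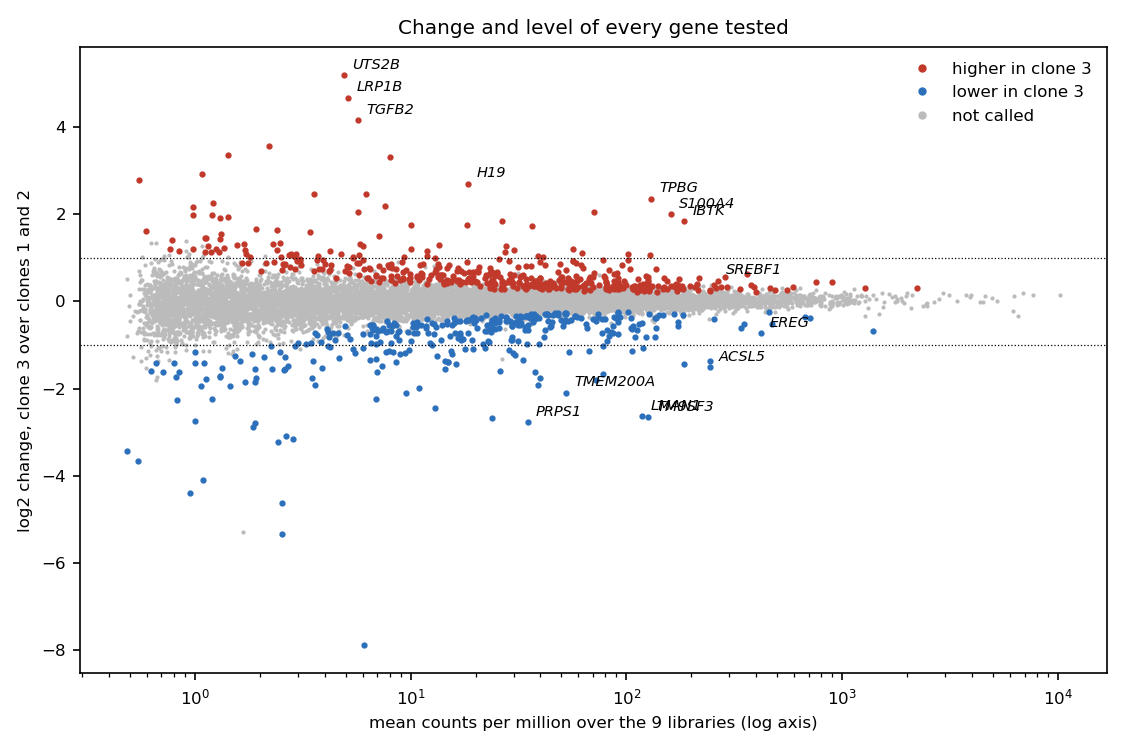
Log2 change of clone 3 over clones 1 and 2 (vertical axis) against mean level over the 9 libraries in CPM (horizontal, log axis) for the 14519 genes tested, with the 455 genes higher in red, the 336 lower in blue and the others in grey. Dotted lines mark a 2-fold difference, and the labelled genes reach a log2 change of 5.18 for UTS2B and -2.77 for PRPS1.

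The 2-fold count was steadier than the count of all calls. Leaving out 1 of the 9 libraries gave 131 to 218 genes at 2-fold, and 109 of the 187 (47 higher, 62 lower) passed in each of those 9 fits. The count of all calls ranged from 289 without the clone 3 library of day C to 2275 without the clone 1 library of day A. It was 445 and 510 without the clone 3 libraries of days A and B, 505 without clone 1 on day C, and 492 and 480 without clone 2 on days B and C, and 246 genes passed in all 9 fits. Against clone 1 alone 187 genes passed, 116 of them at 2-fold, and against clone 2 alone 1594, of which 220 at 2-fold. Without the day term 163 passed, 93 of them at 2-fold.

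Clone 3 differed from each of the other clones at far more genes than clones 1 and 2 differed from each other. In a fit with a term per clone, 521 genes (3.59%) passed between clones 3 and 1 and 576 (3.97%) between clones 3 and 2, of which 173 (1.19%) and 182 (1.25%) were at least 2-fold. Between clones 1 and 2 the count was 6 (0.0413%), 2 of them at least 2-fold (0.0138%; 89 in all with no filter on low counts). In the fit that added clone 4, 1129 of 14685 genes (7.69%) passed between clones 3 and 4 and 604 (4.11%) between clone 4 and clones 1 and 2, and 279 (1.9%) and 146 (0.994%) of these were at least 2-fold. These counts share libraries and are set side by side only. The 6 genes between clones 1 and 2 were SOX30, a transcription factor of the male germ line, CADPS2, a factor in vesicle release, RND3, a small GTPase that acts on the actin cytoskeleton, CAMK4, a calcium-dependent kinase, KLK6, a secreted protease, and PRPS1. They were named after their values were seen. SOX30 was at 0 to 0.146 CPM in clone 3, at 0, 0.0775 and 0.218 CPM in the libraries of clone 1, and at 3.52, 4.82 and 6.30 CPM in those of clone 2. For that gene clone 3 thus had the low level of clone 1.

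**Figure D2:**
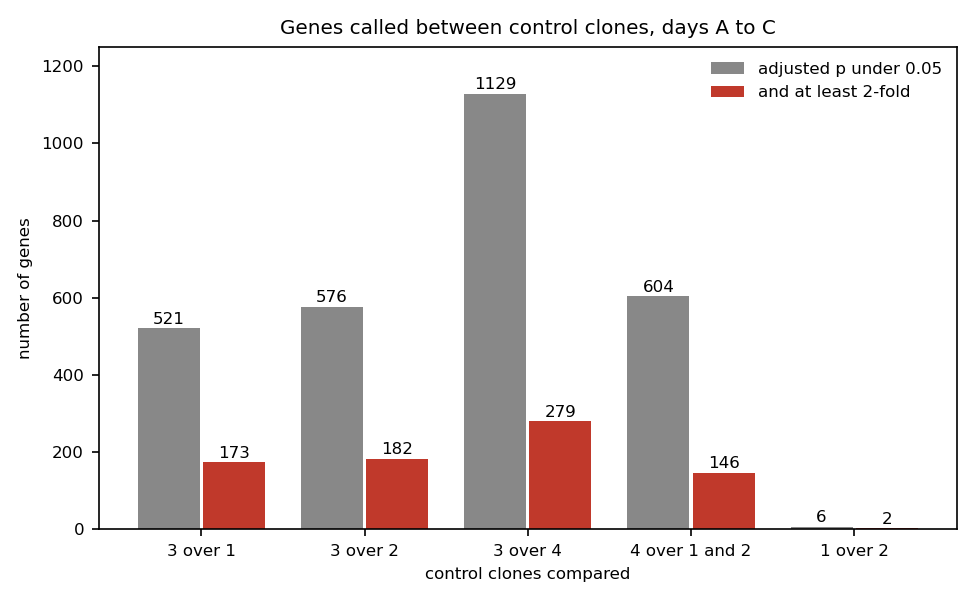
Number of genes (vertical axis) that passed an adjusted p of 0.05 (grey) and were also at least 2-fold apart (red) for each pair of control clones on days A to C. The pairs with clone 3 reach 521, 576 and 1129 genes, and the pair of clones 1 and 2 has 6.

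At 41 of the 187 genes, 17 higher and 24 lower, clone 3 lay beyond all 19 other HCT116 libraries, deletion clones and day D included, against 1.02% of all tested genes. The reverse, clones 1 and 2 beyond all 16 other libraries, held at 5 of the 187 (0.103% of all tested genes): KIRREL2, LHFPL6, PDCL2, SAMD3 and NCAM1, named after their values were seen, of which LHFPL6, PDCL2 and NCAM1 did not pass in every fit without 1 library. The 16 libraries include the day D libraries labelled clones 1 and 2, so a level that those clones kept on day D could not meet this criterion, and the counts of 41 and 5 are not compared. The 187 genes were chosen for a difference between clone 3 and clones 1 and 2. Larger shares than among all tested genes were therefore partly fixed in advance.

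Among the genes lower in clone 3 alone were a pair of membrane proteins of the early secretory pathway, which had the smallest adjusted p of these genes. TM9SF3 (ENSG00000077147.10), a transmembrane-9 protein of the Golgi, had 26.9, 27.8 and 27.8 CPM in clone 3 on days A, B and C, against 162 to 187 CPM (median 175) in clones 1 and 2. The groups were far apart, and all 19 other libraries lay between 139 and 196 CPM. In bulk libraries such as these, a lower level in every cell and a loss of the transcript in part of the cells cannot be told apart. Its log2 change was -2.65 (SE 0.07, adjusted p = 7.62e-09), and it stayed between -2.67 and -2.62 over the 22 alternative fits. LMAN1 (ENSG00000074695.5), the lectin that carries glycoproteins such as clotting factors from the endoplasmic reticulum to the Golgi, had 25.5, 26.4 and 26.5 CPM in clone 3, against 138 to 182 CPM (median 165) in clones 1 and 2. No other HCT116 library was below 119 CPM, and the log2 change was -2.63 (SE 0.09, adjusted p = 7.22e-08). These genes lie on chromosomes 10 and 18, and on each day clone 3 held both at nearly the same level. Their promoter windows, from 250 bases before to 50 after the annotated start (RefSeq, GRCh38.p14, 5′ to 3′ on the gene's strand), are shown with CG dinucleotides in capitals, since both genes have a CG-rich start. The TM9SF3 window is chr10:96586963-96587262 on the minus strand and the LMAN1 window chr18:59359216-59359515 on the minus strand.
TM9SF3: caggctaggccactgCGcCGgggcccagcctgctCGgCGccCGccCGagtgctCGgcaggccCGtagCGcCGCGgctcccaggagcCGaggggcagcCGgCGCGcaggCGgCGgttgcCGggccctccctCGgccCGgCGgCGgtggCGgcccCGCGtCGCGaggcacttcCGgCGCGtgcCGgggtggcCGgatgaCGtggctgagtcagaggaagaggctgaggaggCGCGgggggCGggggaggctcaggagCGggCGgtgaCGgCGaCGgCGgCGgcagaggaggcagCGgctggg
LMAN1: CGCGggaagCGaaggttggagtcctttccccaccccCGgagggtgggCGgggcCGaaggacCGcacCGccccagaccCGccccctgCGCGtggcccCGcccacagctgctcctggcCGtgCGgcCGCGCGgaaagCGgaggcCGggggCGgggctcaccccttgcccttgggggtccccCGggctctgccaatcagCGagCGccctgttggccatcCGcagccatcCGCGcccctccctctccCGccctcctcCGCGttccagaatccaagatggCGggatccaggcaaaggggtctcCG
The windows hold 44 and 31 CG dinucleotides, and 7.3% and 36.6% of the windows of all tested genes hold as many or more.

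The largest difference of any tested gene was that of ENSG00000108753.8, which has no symbol in the tables used here. It had 0, 0 and 0.0994 CPM in clone 3, a single count in all, against 8.45 to 9.83 CPM (median 9.09) and 701 counts in clones 1 and 2. The pooled level was 321-fold lower (95% interval 57.5 to 12720, counting error only), and all 19 other libraries were between 6.53 and 11.9 CPM. Adjusted p was 4.73e-07.

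ACSL5, which activates long-chain fatty acids with coenzyme A, had 117, 91.7 and 115 CPM in clone 3, against 273 to 378 CPM (median 300) in clones 1 and 2. Its log2 change was -1.51 (SE 0.07, adjusted p = 4.73e-07). GCA, the calcium-binding protein grancalcin, had 5.56, 1.53 and 1.89 CPM in clone 3 and 9.72 to 18.9 CPM (median 11.6) in clones 1 and 2. SEPTIN6, a filament-forming GTPase of the cytoskeleton, had 4.83, 2.29 and 3.88 CPM in clone 3 and 12 to 18.6 CPM (median 13.5) in clones 1 and 2. For each of these 3 genes clone 3 was also below the 19 other libraries, and the log2 changes of GCA and SEPTIN6 were -2.11 (SE 0.20) and -1.99 (SE 0.13), both passing. Other genes lower in clone 3 than in all 19 libraries, and passing in each fit without 1 library, included NAV3, MACC1, a driver of colon cancer cell motility, TFAP2A, an AP-2 transcription factor, VGF, a secretory granule protein, and CCNH, a subunit of the CDK-activating kinase, with log2 changes of -1.58, -1.40, -1.39, -1.38 and -1.11. VEPH1, GPR15, SEMA3A, OR51B5 and TRNP1 met the same criteria, at -2.24, -1.86, -1.75, -1.38 and -1.18, as did RNF43 and DSC3, which are described with their groups.

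Genes higher in clone 3 alone were led by secreted signals with low counts in the other libraries. UTS2B (ENSG00000188958.5), which encodes a urotensin-like peptide hormone, had 14.8, 13.2 and 13.9 CPM in clone 3, against 0.150 to 0.761 CPM (median 0.283) in clones 1 and 2. All 19 other libraries stayed at or under 1.12 CPM, and the log2 change was 5.18 (SE 0.25, adjusted p = 4.73e-07). TGFB2 (ENSG00000092969.7), a TGF-beta ligand, had 15.8, 12.7 and 17.5 CPM in clone 3, against 0.508 to 1.20 CPM (median 0.848) in clones 1 and 2. The highest of the 19 other libraries reached 4.90 CPM, and the log2 change was 4.15 (SE 0.19, adjusted p = 3.7e-07). The promoter windows of these low-to-high genes are also shown, as examples that do not stand for all higher or lower genes. The window of PRPS1, a lower gene described below, holds 22 CG dinucleotides, under the median of 26 over all tested genes with a window. The UTS2B window is chr3:191330477-191330776 on the minus strand and the TGFB2 window chr1:218345086-218345385 on the plus strand.
UTS2B: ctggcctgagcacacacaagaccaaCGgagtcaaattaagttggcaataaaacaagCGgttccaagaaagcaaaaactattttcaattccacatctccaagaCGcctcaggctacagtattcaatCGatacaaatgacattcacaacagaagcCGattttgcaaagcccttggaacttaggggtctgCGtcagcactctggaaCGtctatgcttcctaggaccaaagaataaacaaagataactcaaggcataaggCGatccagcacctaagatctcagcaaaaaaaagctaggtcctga
TGFB2: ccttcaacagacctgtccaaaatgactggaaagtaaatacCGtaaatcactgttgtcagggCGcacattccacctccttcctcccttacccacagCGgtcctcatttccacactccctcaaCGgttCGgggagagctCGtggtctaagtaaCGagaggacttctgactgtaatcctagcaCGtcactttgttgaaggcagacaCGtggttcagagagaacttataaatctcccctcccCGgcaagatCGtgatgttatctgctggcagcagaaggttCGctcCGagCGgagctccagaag
They hold 8 and 14 CG dinucleotides, and 91.2% and 84.2% of the windows of all tested genes hold as many or more.

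TPBG (ENSG00000146242.5), the oncofetal surface protein 5T4 that dampens Wnt signalling, had 325, 246 and 270 CPM in clone 3, against 47.7 to 65.0 CPM (median 55.7) in clones 1 and 2. The 19 other libraries ended at 66.5 CPM, and the log2 change was 2.35 (SE 0.07, adjusted p = 9.55e-09). H19, the imprinted noncoding RNA expressed from the maternal allele, had 24.5, 55.2 and 48.3 CPM in clone 3, against 5.12 to 8.55 CPM (median 6.44) in clones 1 and 2, a log2 change of 2.70 (SE 0.12, adjusted p = 4.15e-07). Clone 3 was above the 14.4 CPM of the highest other library on each day. Of 21 imprinted genes tested, H19 was the 1 called higher, SGCE and PEG10 were lower (log2 -1.18 and -0.77), and the median was -0.0015. SGCE and PEG10 lost the call when single libraries were left out (1 and 8 of the 9 fits). LOXL4, a lysyl oxidase of the extracellular matrix, had 4.83, 9.09 and 9.74 CPM in clone 3 and 1.07 to 1.89 CPM (median 1.33) in clones 1 and 2, a log2 change of 2.47 (SE 0.24). RGS5, which speeds GTP hydrolysis by G-protein alpha subunits, had 26.9, 11.5 and 9.54 CPM in clone 3 and 2.17 to 4.64 CPM (median 3.28) in clones 1 and 2, a log2 change of 2.19 (SE 0.21). Clone 3 did not overlap clones 1 and 2 for LOXL4 or RGS5.

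**Figure D3:**
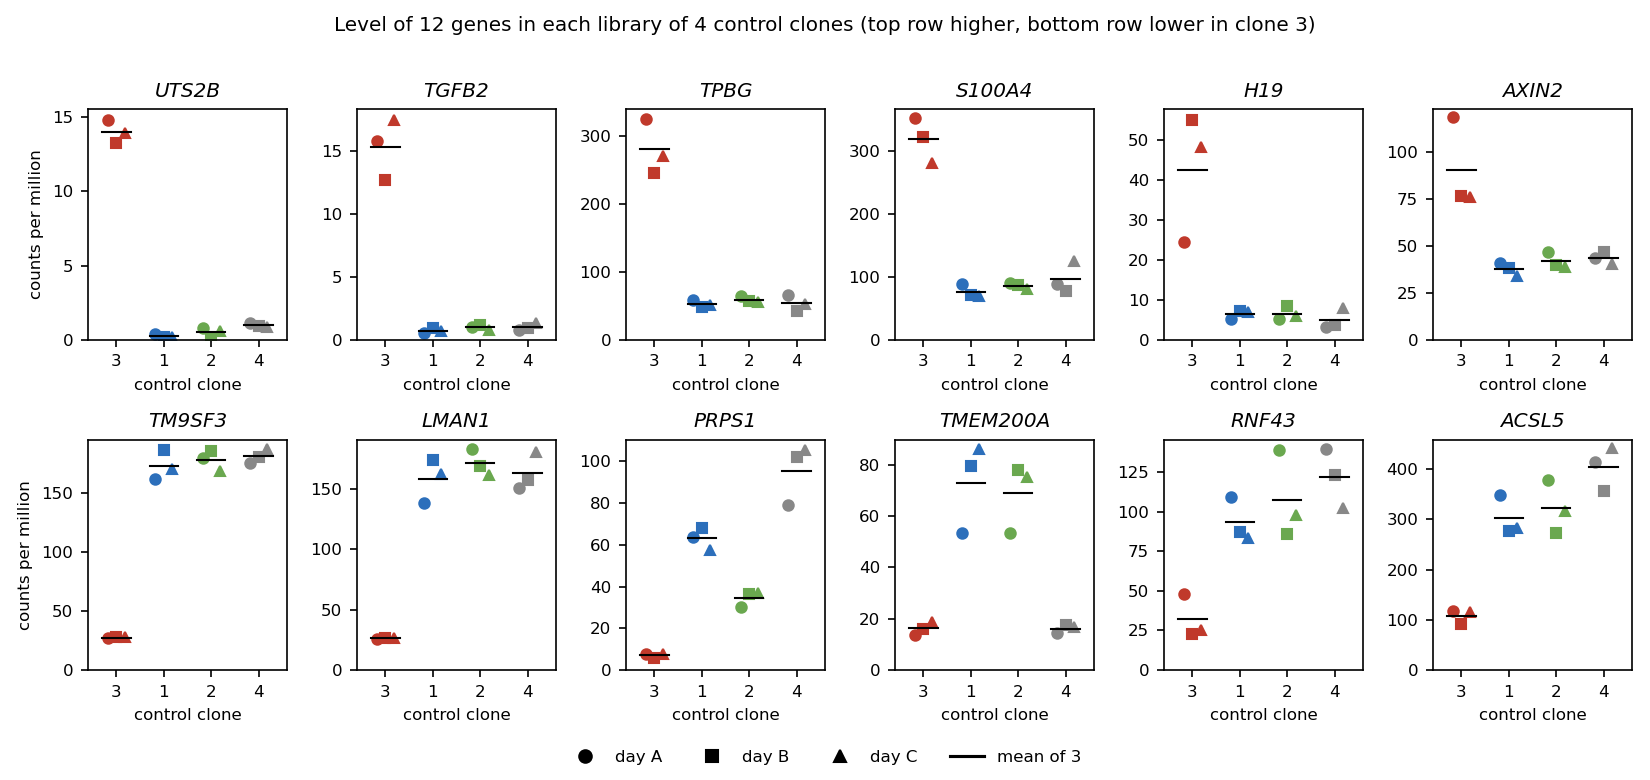
Level in CPM (vertical axis, from 0) of 12 genes in each library of control clones 3, 1, 2 and 4 (horizontal axis), with 1 symbol per day and a line at the mean of the 3 libraries. Clone 3 stands above clones 1 and 2 in the top row and below them in the bottom row, and clone 4 lies beside clone 3 for TMEM200A and beside clones 1 and 2 for TM9SF3 and LMAN1.

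Several leading genes separated the clones in other patterns. S100A4, a calcium-binding protein of cell motility, had 352, 322 and 282 CPM in clone 3, against 69.7 to 90.4 CPM (median 83.9) in clones 1 and 2, a log2 change of 1.99 (SE 0.08, adjusted p = 1.03e-07). The E7 deletion clone was also high, at 365 to 386 CPM, and clone 4 was at 77.2 to 125 CPM. LRP1B, an endocytic receptor of the LDL receptor family, had 18.0, 7.73 and 17.3 CPM in clone 3 and 0.101 to 1.11 CPM (median 0.454) in clones 1 and 2, a log2 change of 4.67 (SE 0.31). The E7 clone had 7.30 to 11.7 CPM of it. FGFBP1, which releases fibroblast growth factors from the matrix, had 19.8, 5.01 and 10.1 CPM in clone 3 and 1.55 to 4.57 CPM (median 2.38) in clones 1 and 2. Its log2 change of 2.05 (SE 0.15) became 1.36 against clones 1, 2 and 4, with clone 4 at 5.48 to 9.51 CPM.

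The lower genes held the same kinds of pattern. TMEM200A, a transmembrane protein, had 13.8, 15.9 and 18.9 CPM in clone 3, against 53.4 to 86.1 CPM (median 76.7) in clones 1 and 2, a log2 change of -2.09 (SE 0.09, adjusted p = 2.14e-07). Clone 4 was at 14.3 to 17.4 CPM, the 18qNE and 18qE clones at 13.4 to 23.2 CPM, and the E7 clone at 57.8 to 66.8 CPM. The day D libraries labelled clones 1 and 2 had 11.6 and 22.9 CPM, which is the level of clone 3 and not that of the same labels on days A to C. Against clones 1, 2 and 4 together it did not pass (log2 -1.67, adjusted p = 0.0991). STXBP6, a regulator of SNARE complexes, had 4.24, 1.61 and 2.78 CPM in clone 3 and 7.67 to 9.83 CPM (median 9.37) in clones 1 and 2, a log2 change of -1.62 (SE 0.19, adjusted p = 0.000603). Clone 4 was lower still, at 0 to 0.0830 CPM, as were the E7 clone (0 to 0.202 CPM) and the day D libraries labelled clones 1 and 2 (0 and 0.0871 CPM). STXBP6 did not pass against clones 1, 2 and 4 together (log2 -1.06, adjusted p = 0.628).

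PRPS1, the enzyme that makes phosphoribosyl pyrophosphate for nucleotide synthesis, took several levels. It had 7.54, 5.86 and 7.75 CPM in clone 3, against 30.2 to 68.0 CPM (median 47.2) in clones 1 and 2. Clone 1 averaged 63.0 CPM (SD 5.30, n = 3) and clone 2 averaged 34.6 CPM (SD 3.80, n = 3), and clone 1 over clone 2 was 0.89 on the log2 scale (adjusted p = 0.0480). Clone 4 had 78.9 to 105 CPM. One 18qNE clone was at 8.33 CPM while the others were at 73.2 and 117 CPM, and the day D library labelled clone 2 was at 6.44 CPM while that labelled clone 1 was at 96.3 CPM. The log2 change of clone 3 was -2.77 (SE 0.32, adjusted p = 0.000468), and it passed in all 22 alternative fits.

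Of the remaining leading genes that were lower, 5 are given here. TTN, the muscle giant titin, which shares its locus with an antisense RNA, had 6.22, 3.57 and 5.27 CPM in clone 3 and 24.1 to 43.0 CPM (median 32.1) in clones 1 and 2. PKIB, an inhibitor of protein kinase A, had 3.95, 2.21 and 3.58 CPM in clone 3 and 11.6 to 26.1 CPM (median 16.4) in clones 1 and 2. RGS2, which turns off Gq-coupled signalling, had 20.3, 13.4 and 12.1 CPM in clone 3 and 40.9 to 74.7 CPM (median 45.3) in clones 1 and 2. Their log2 changes were -2.67 (SE 0.21), -2.44 (SE 0.15) and -1.75 (SE 0.09), and clone 3 did not overlap clones 1 and 2 at any of the 3 genes. TANK, an adaptor of TRAF proteins that restrains NF-kB, had 33.2, 24.2 and 22.8 CPM in clone 3 and 88.3 to 105 CPM (median 93.7) in clones 1 and 2, a log2 change of -1.81 (SE 0.08). SYT1, the calcium sensor of vesicle release, had 23.8, 8.49 and 9.74 CPM in clone 3 and 39.2 to 75.8 CPM (median 46.4) in clones 1 and 2, a log2 change of -1.92 (SE 0.16). The E7 clone was high for SYT1, at 84.1 to 121 CPM, and for TANK, at 106 to 131 CPM. It was low for RGS2, at 7.49 to 11.2 CPM, and for TTN, at 5.62 to 8.95 CPM. For PKIB the E7 clone had 15.2 to 17.6 CPM, and an 18qE clone had 1.73 CPM, below clone 3.

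**Figure D4:**
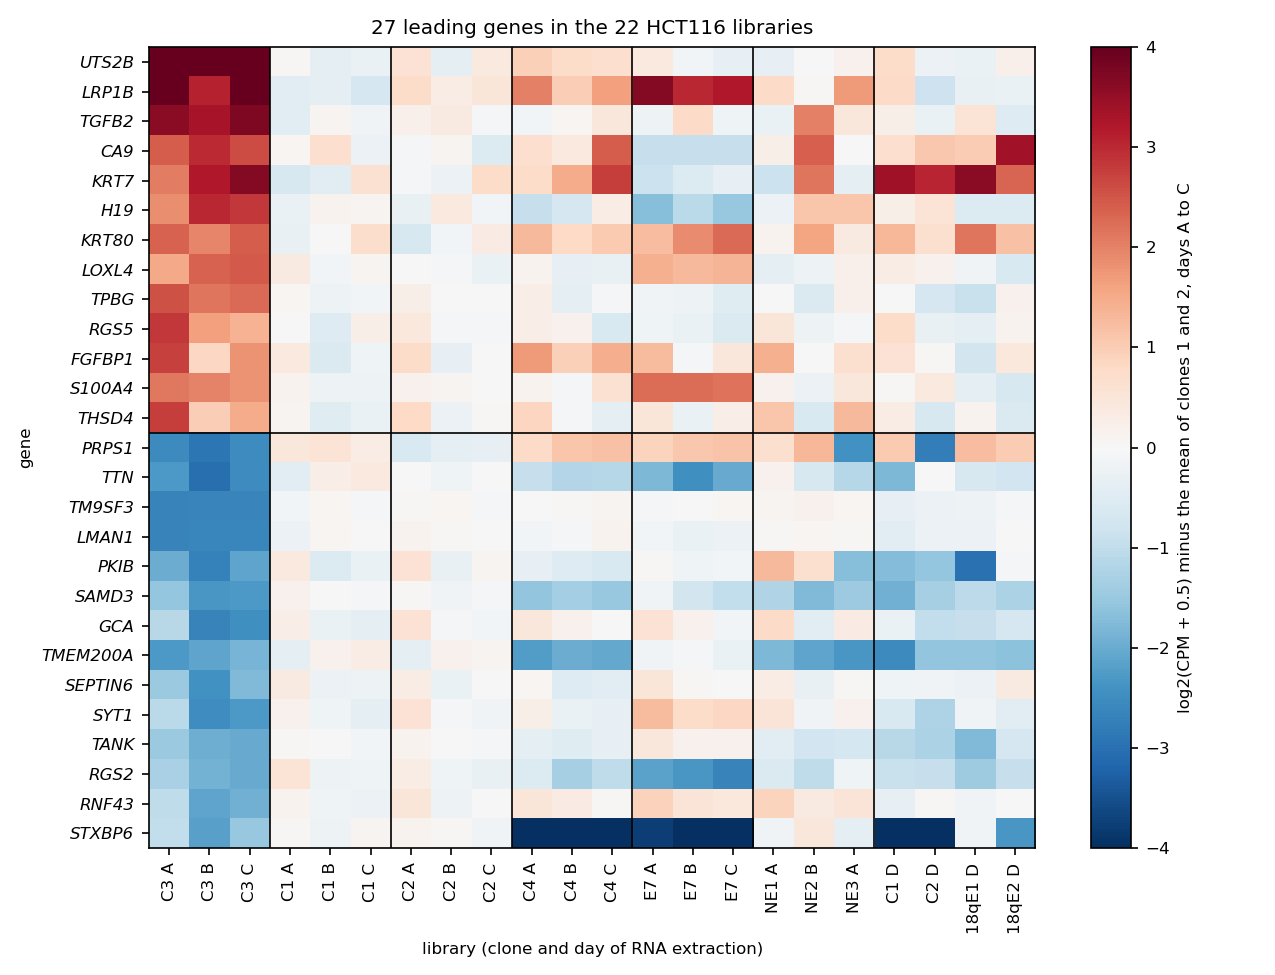
27 of the genes with the largest changes (rows, 13 higher above and 14 lower below the line) in the 22 HCT116 libraries (columns, named by clone and day). Colour is log2(CPM + 0.5) minus the mean of clones 1 and 2 on days A to C, with values beyond 4 in the end colours. TM9SF3 and LMAN1 are dark only in clone 3, S100A4 is high in clone 3 and E7, and TMEM200A and STXBP6 are low in clone 4 and in the day D libraries of clones 1 and 2.

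Some genes that differed lay next to each other. Taking the tested genes in order along each chromosome, 12 runs of at least 3 neighbours were called in the same direction, with 37 genes, and 58 runs had at least 2. The clearest was on chromosome 6, where IBTK, an inhibitor of Bruton's kinase, TPBG and UBE3D, a ubiquitin ligase, were all higher. IBTK had 417, 273 and 374 CPM in clone 3 and 86.6 to 107 CPM (median 102) in clones 1 and 2, a log2 change of 1.83 (SE 0.09, adjusted p = 6.86e-07). UBE3D had 20.7, 16.7 and 16.4 CPM in clone 3 and 8.14 to 9.75 CPM (median 8.86) in clones 1 and 2, a log2 change of 1.03 (SE 0.10). On one side TENT5A was at -0.16 (adjusted p = 0.335), and on the other DOP1A was at 0.48 (adjusted p = 0.0627). Past DOP1A, PGM3 was also called higher, at 0.25 (adjusted p = 0.048). RWDD2A and ME1, next in order, were at 0.23 and 0.19 and were not called. All 3 genes of the run were above the 19 other libraries.

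Elsewhere on chromosome 6, SAMD3 and TMEM200A were the lone pair to differ among 11 neighbours. SAMD3 had 2.85, 1.44 and 1.49 CPM in clone 3 and 8.48 to 10.6 CPM (median 9.28) in clones 1 and 2, a log2 change of -2.24 (SE 0.17, adjusted p = 2.3e-05), with L3MBTL3 and EPB41L2 beside them at 0.02 and -0.01 (adjusted p = 0.955 and 0.969). SAMD3 and TMEM200A are annotated as overlapping on opposite strands, and without strand information their reads cannot be fully told apart. Their promoter windows share 248 bases. The window of TMEM200A is shown because both genes start within it or beside it, at chr6:130365767-130366066 on the plus strand, with CG dinucleotides in capitals.
TMEM200A: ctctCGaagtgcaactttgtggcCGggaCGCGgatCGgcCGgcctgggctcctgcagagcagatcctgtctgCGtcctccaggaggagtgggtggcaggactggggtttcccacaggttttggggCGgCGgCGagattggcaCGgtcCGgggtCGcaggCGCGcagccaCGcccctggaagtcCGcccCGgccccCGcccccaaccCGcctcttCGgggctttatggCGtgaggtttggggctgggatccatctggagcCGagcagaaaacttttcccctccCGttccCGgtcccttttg
It holds 25 CG dinucleotides, and that of SAMD3 holds 26, against a median of 26 over all tested genes with a window.

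UTS2B headed a run on chromosome 3 with CCDC50 and MB21D2. CCDC50 had 157, 144 and 167 CPM in clone 3 and 68.2 to 86.4 CPM (median 73.4) in clones 1 and 2, a log2 change of 1.08 (SE 0.07, adjusted p = 9.56e-06). It overlaps UTS2B, so that reads of either may be counted for the other. MB21D2 was at 0.53 (adjusted p = 0.0412) and lost the call in 15 of the 22 alternative fits. On chromosome 1, the neighbours RGS4 and RGS5 were both higher, and NUF2 beside them was at -0.14 (adjusted p = 0.427). RGS4 had 5.56, 1.10 and 1.09 CPM in clone 3 and 0.233 to 0.709 CPM (median 0.545) in clones 1 and 2. Its log2 change of 2.25 (SE 0.43, adjusted p = 0.0114) became 1.08 (adjusted p = 0.219) without the clone 3 library of day A. On chromosome 5, MSX2, a homeobox repressor, had 96.2, 49.2 and 59.0 CPM in clone 3 and 13.4 to 27.6 CPM (median 20.2) in clones 1 and 2, a log2 change of 1.73 (SE 0.09, adjusted p = 1.24e-06). Clone 4 was at 39.8 to 51.3 CPM, and the neighbouring noncoding RNA LINC01411 was higher by 2.77 (SE 0.39), with a mean of 1.27 CPM in clone 3 and 0.188 CPM in clones 1 and 2, and did not pass against clone 1 alone (adjusted p = 0.0804). No whole chromosome moved: the median log2 change of each autosome and of the X lay between -0.05 and 0.05, and medians over windows of 31 neighbouring genes between -0.27 and 0.20.

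**Figure D5:**
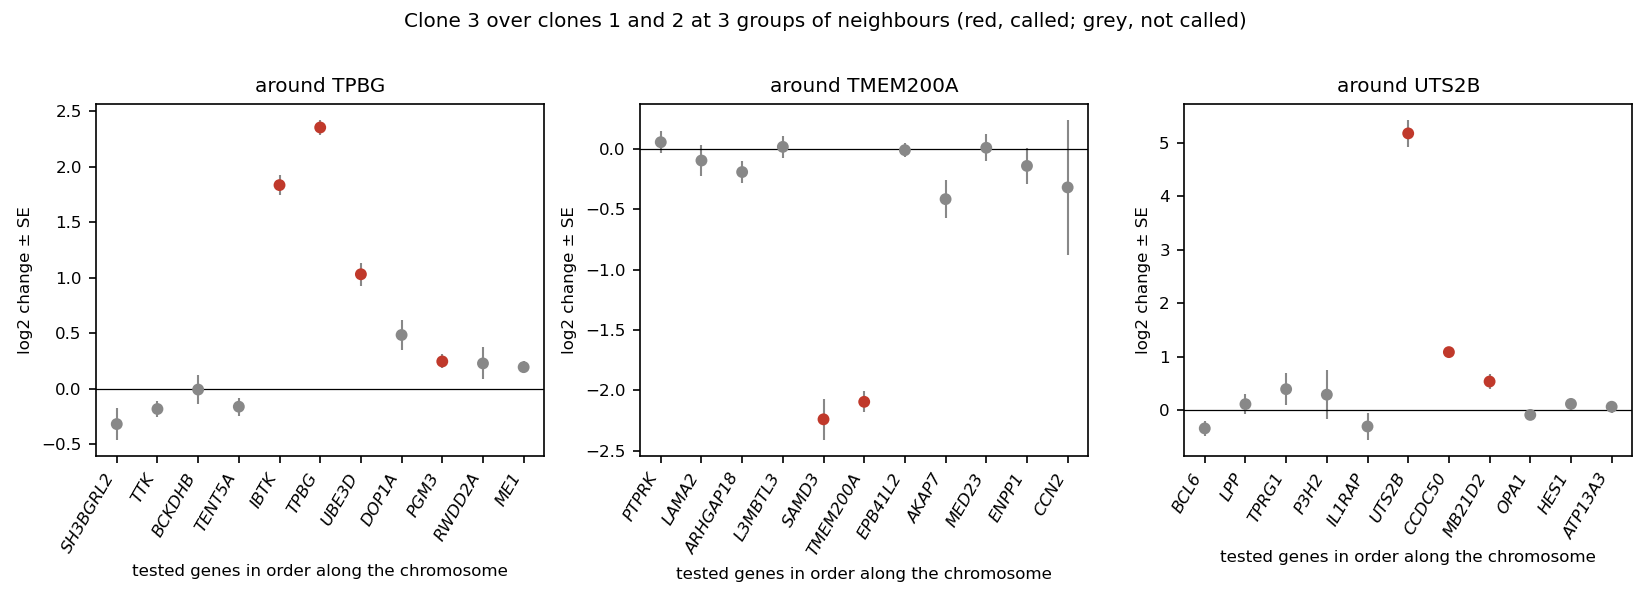
Log2 change of clone 3 over clones 1 and 2 with its SE (vertical axis) for 11 tested genes in their order along the chromosome (horizontal axis) around TPBG, TMEM200A and UTS2B. Red points passed the test and grey points did not. IBTK, TPBG and UBE3D stand together at 1.83, 2.35 and 1.03, and SAMD3 and TMEM200A at -2.24 and -2.09.

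Keratins, the intermediate filaments of epithelia, differed more often than any other listed group of 10 or more tested genes: of 13 tested, 5 were higher and 2 lower (53.8%, against 5.45% of all tested genes), with a median log2 change of 0.16. KRT7, a keratin of simple ductal epithelium, had 9.22, 21.3 and 29.5 CPM in clone 3 and 1.02 to 3.44 CPM (median 1.65) in clones 1 and 2, a log2 change of 3.31 (SE 0.20, adjusted p = 2.99e-06). Clone 4 had 3.45 to 15.6 CPM, and the day D libraries of clones 1 and 2 had 24.1 and 19 CPM. KRT80 had 14.5, 10.8 and 15.3 CPM in clone 3 and 1.39 to 4.25 CPM (median 2.37) in clones 1 and 2, a log2 change of 2.47 (SE 0.19, adjusted p = 2.22e-05). KRT13 was also higher (1.02), KRT23 lower (-0.87), and KRT14 was higher by 2.91 (SE 0.39) at 0.293, 4.25 and 3.18 CPM in clone 3 and 0 to 0.775 CPM in clones 1 and 2. KRT14 did not pass without the day term (adjusted p = 0.171). KRT20 (-0.65) lost the call in 3 of the 9 fits without 1 library, and KRT6A (0.75), which has near-identical paralogs, in 1. The main keratins of the line, KRT8, KRT18 and KRT19, are in the epithelial list, where the 1 called member was KRT20.

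Both called members of the Wnt list (16 tested) are parts of its negative feedback, and they moved in opposite directions. AXIN2, a scaffold that helps degrade beta-catenin and a direct Wnt target, had 118, 76.3 and 76.2 CPM in clone 3 and 34.0 to 46.6 CPM (median 39.5) in clones 1 and 2, a log2 change of 1.19 (SE 0.09, adjusted p = 1.73e-05). RNF43, the ubiquitin ligase that removes Frizzled receptors, had 48.1, 22.7 and 25.6 CPM in clone 3 and 83.1 to 139 CPM (median 92.6) in clones 1 and 2, a log2 change of -1.66 (SE 0.12, adjusted p = 1.39e-05). The groups did not overlap for either gene, and no other HCT116 library was below 78.6 CPM for RNF43, which overlaps an antisense RNA. For AXIN2, an 18qNE clone had 78.7 CPM, above clone 3 on days B and C, so clone 3 did not stand apart from all other libraries. The median of the list was 0.05. At an unadjusted p under 0.05 in edgeR, 4 members were higher and 3 lower, and DESeq2 called 4 higher and 2 lower.

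Of 24 tested TGF-beta and SMAD target genes, 4 were higher and 2 lower (25%), with a median of 0.13. Beside TGFB2, ID3 was higher (0.51) and ID2 lower (-1.03), both inhibitors of basic helix-loop-helix factors. ID2 had 69.2, 28.4 and 35.8 CPM in clone 3 and 54.4 to 170 CPM (median 67.3) in clones 1 and 2. Its groups overlapped over the days, though clone 3 was below clones 1 and 2 on each day by 1.21, 0.98 and 0.85 on the log2 scale, and without the day term it did not pass (adjusted p = 0.414). The called members PMEPA1 and SMAD6 did not pass in every fit without 1 library.

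Among outputs of the MAPK pathway, 2 of 21 tested genes were higher and 5 lower (33.3%), with a median of -0.06. Those that passed in every fit without 1 library were all lower: AREG and EREG, ligands of the EGF receptor, and SPRY4, a feedback inhibitor (-0.51). AREG had 17.4, 8.91 and 12.8 CPM in clone 3 and 17.6 to 39.5 CPM (median 21.4) in clones 1 and 2, a log2 change of -0.97 (SE 0.10), and it did not pass without the day term (adjusted p = 0.171). EREG had 331, 228 and 309 CPM in clone 3 and 426 to 524 CPM (median 490) in clones 1 and 2, a log2 change of -0.74 (SE 0.10, adjusted p = 0.00151). It lay below all 19 other libraries, and it did not pass without day C (adjusted p = 0.0613) or against clone 1 alone (adjusted p = 0.0669). Of 29 tested growth factors and receptors, 6 were higher and 3 lower (31%). Those that passed in every fit without 1 library were 1 higher (FGFBP1) and 3 lower (AREG, EREG and FGF2). FGF2, a fibroblast growth factor, had 10.3, 9.76 and 9.74 CPM in clone 3 and 14.9 to 27.4 CPM (median 22.2) in clones 1 and 2, a log2 change of -1.10 (SE 0.14). Clone 4 was lower again, at 5.93 to 8.64 CPM, and FGF2 did not pass against clones 1, 2 and 4 together (log2 -0.73, adjusted p = 0.391).

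HOX genes, which pattern the body axis and keep a positional code in the colon, were lower where they differed: 6 of 26 tested were lower and none higher (23.1%), with a median of -0.13. Higher members were also 0 at an unadjusted p under 0.05 in edgeR and 0 with DESeq2. All 6 belong to the HOXB cluster. HOXB8 had 19, 15.7 and 12.6 CPM in clone 3 and 30.7 to 45.4 CPM (median 36.2) in clones 1 and 2, a log2 change of -1.24 (SE 0.12, adjusted p = 0.000164). Clone 4 was at 18.4 to 20.4 CPM, and against clones 1, 2 and 4 together HOXB8 did not pass (log2 -0.98, adjusted p = 0.0588). HOXB4, HOXB3, HOXB5, HOXB6 and HOXB9 changed by -0.83, -0.79, -0.68, -0.66 and -0.56. HOXB5 did not pass in every fit without 1 library, and HOXB3 and HOXB4 overlap.

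Genes of cholesterol and fatty acid synthesis were more often higher than lower: of 36 tested, 9 were higher and 1 lower (27.8%), with a median of 0.17 against -0.0054 over all tested genes. None reached 2-fold. SREBF1, the transcription factor of lipid synthesis, had 336, 318 and 313 CPM in clone 3 and 217 to 256 CPM (median 238) in clones 1 and 2, a log2 change of 0.48 (SE 0.06, adjusted p = 0.000807). It was above all 19 other libraries and did not pass against clone 1 alone (adjusted p = 0.0798). SREBF2 was higher by 0.39 (SE 0.06), and 7 of the called members did not pass in every fit without 1 library.

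Of 32 tested cell junction genes, none was higher and 5 were lower (15.6%), with a median of -0.17. At an unadjusted p under 0.05 in edgeR 3 were higher, and 0 with DESeq2. The desmosomal cadherins DSC3 and DSC2 were the members that passed in every fit without 1 library, at -1.19 (SE 0.18) and -0.82 (SE 0.13). DSC3 had 7.03, 3.99 and 4.08 CPM in clone 3 and 10.0 to 16.1 CPM (median 10.9) in clones 1 and 2, and neither gene passed against clone 1 alone (adjusted p = 0.0697 and 0.0727). Other surface proteins also differed. DPP4, a brush-border peptidase, had 10.7, 6.54 and 5.27 CPM in clone 3, 14.6 to 28.4 CPM (median 20.2) in clones 1 and 2 and 43.6 to 62.9 CPM in clone 4. DPEP1, a membrane dipeptidase raised in colorectal tumours, had 18.1, 8.49 and 11.9 CPM in clone 3 and 19.7 to 33.0 CPM (median 26.2) in clones 1 and 2. SLC7A11, the cystine importer, had 22.5, 24.9 and 22.8 CPM in clone 3 and 36.8 to 63.8 CPM (median 46.5) in clones 1 and 2. Their log2 changes were -1.44 (SE 0.15), -1.07 (SE 0.12) and -0.99 (SE 0.13), and each passed in all 22 alternative fits. Clone 3 was not alone at these levels. The E7 clone had 3.57 to 6.66 CPM of DPP4 and 0 to 0.0702 CPM of DPEP1. For SLC7A11, the day D library labelled clone 2 had 22.1 CPM and an 18qE clone 24.0 CPM, while the E7 clone had 93.5 to 156 CPM. CA9, a cell-surface carbonic anhydrase induced by low oxygen, had 4.61, 7.05 and 5.37 CPM in clone 3 and 0.153 to 1.01 CPM (median 0.462) in clones 1 and 2, a log2 change of 3.55 (SE 0.26). Clone 4 had 0.748 to 4.61 CPM (log2 2.06 over clones 1 and 2, adjusted p = 0.0391), 1 18qNE clone had 4.55 CPM and 1 18qE clone 9.31 CPM, so clone 3 was not alone at this level. The other 3 called members of the hypoxia and glycolysis list (36 tested), SLC2A3, PKM and ALDOC, did not pass in every fit without 1 library.

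Few genes of the groups that run cell growth and division were called. None of 41 tested MYC target genes was called, and 1 of 58 ribosome biogenesis genes (POLR1A, -0.57), 1 of 48 DNA replication genes, 2 of 45 mitosis genes and 1 of 30 p53 targets were, with medians between -0.09 and 0.03. At an unadjusted p under 0.05 in edgeR, 1 DNA replication gene was higher and 10 were lower, 2 mitosis genes were higher and 5 lower, and 8 p53 targets were higher and 2 lower. No member was called among 13 mitochondrially encoded genes, 15 genes of DNA methylation, 18 of apoptosis and the response to Cas9 cuts, 7 cancer-testis genes, 4 clustered protocadherins or 4 metallothioneins that were tested. Over these 7 lists without a call (102 genes), 10 genes had an unadjusted p under 0.05 in edgeR, and DESeq2 called 1. Of 25 interferon genes 1 was called and of 35 genes of the unfolded protein response 1 (SLC7A11). Of 370 zinc finger genes 4 were higher and 10 lower (3.78%), a share below that of all tested genes. At an unadjusted p under 0.05 in edgeR, 21 zinc finger genes were higher and 54 lower, and the median of the list was -0.08. The counts of called genes are read beside the 5.45% of all genes, and no test compared a list with other genes.

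The genes that differed at least 2-fold had starts with fewer CG dinucleotides than the tested genes as a whole, as a description. The RefSeq window held a median of 10 (quartiles 6 and 22) in 55 of the 82 higher genes and 19 (quartiles 5 and 32) in 73 of the 105 lower genes that had a window, against 26 (quartiles 18 and 35) in 10655 tested genes. Only 3 genes were called at under 0.5 CPM in either clone 3 or clones 1 and 2 and at least 5 CPM in the other. These were UTS2B and CA9, low in clones 1 and 2, with 8 and 7 CG dinucleotides, and ENSG00000108753.8, low in clone 3, with no window.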

How the data were processed

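RNA was measured in 22 HCT116 libraries, of which 9 were compared. Per the labels' protocols, Trizol extracts went into single-end TruSeq libraries read on a NextSeq500. The authors deposited raw counts of reads per gene, unnormalized, in a file for each library. Tools named in the submitters' processing notes include TopHat2, Partek 3 and HTSeq 0.6.1, with hg19 as the build. Whether counting used strand is not stated, so overlapping genes cannot be told apart. Each file listed 57820 genes, 51996 with a symbol in NCBI tables, and 5 lines of unassigned reads, left out of totals and fits (outside genes, 7.78% to 14.3% of counted reads in the 9 libraries). Those tables follow GRCh38.p14 and gave names, gene order and promoter windows.

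Counts were tested with edgeR 4.0.16 in R 4.3.3 (2-sided quasi-likelihood F test after TMM scaling, genes kept by filterByExpr at a min.count of 10) with day and clone group as terms and Benjamini-Hochberg adjustment over all genes tested. The day is that of RNA extraction in the labels, and it pairs the libraries: deviations from the clone means correlated at 0.231 to 0.786 between same-day libraries (9 pairs) and -0.638 to 0.306 between different days (18 pairs). CPM is the count over the library's total gene count, and SE is that of the log2 change. The scripts were tested on simulated counts. Named genes were those with a symbol, called, averaging 5 CPM or more where higher and no overlap between groups, the 14 largest in each direction, plus up to 3 called members of each of 36 gene lists and the members of runs of at least 3 called neighbours; RGS4, MSX2, LINC01411 and NAV3 (pairs of neighbours at 2-fold) and the gene without a symbol were added after their values were seen; others are said to be chosen after their values were seen, or are called list members or genes apart from all other libraries. The members, lists and comparison were chosen with earlier results of these data known. Alternatives were other scaling (RLE, or library total only), DESeq2 1.42.0, no filter, no day term, a term per clone, sums per clone, other comparison clones, and left-out days and libraries. The 4 HEK293 libraries and the 6 chromatin samples were not analysed here. Some genes that the naming rule takes are not reported here.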

Additional observations from a re-analysis of the deposited data

Results flagged for a closer look

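The 6 libraries of clones 1 and 2 were checked by Dixon's criterion (0.625) at the 109 genes named by the rule or added to it. Chance flags about 1 in 20 groups of values that share no structure. The criterion ignored the day that pairs the libraries, so a flag may include a difference between days. In 10 of the 109 genes, 1 library stood apart from the other 5. The clone 2 library of day A was the highest at 8 of them: THSD4 (23.1 CPM), DSC3 (16.1 CPM), DSC2 (68.8 CPM), BIRC3 (6.71 CPM), ALDOC (73.7 CPM), PEG10 (32.9 CPM), ATG12 (183 CPM) and ARHGAP42 (26.0 CPM). The clone 1 library of day B was the highest for ZNF804A (5.5 CPM), and the clone 1 library of day A was the lowest for ZNF426 (3.85 CPM). Clone 3 was above all 6 libraries for THSD4, a matrix protein of microfibrils, at 92.9, 26.7 and 37.3 CPM.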

How the results depend on the processing

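The count of all calls depended on which libraries entered. It was 163 (82 higher, 81 lower, 93 at 2-fold) with no replicate block, that is without the day that pairs the libraries, 187 (99 higher, 88 lower, 116 at 2-fold) against clone 1 alone and 1594 (819 higher, 775 lower) against clone 2 alone. Without day A it was 1716 (955 higher, 761 lower), without day B 349 (202 higher, 147 lower) and without day C 165 (89 higher, 76 lower, 106 at 2-fold). With no filter on low counts 1184 genes passed, 546 of them lower. Leaving out 1 library gave 289 to 2275 calls, 155 to 1264 higher, 134 to 1011 lower and 131 to 218 at 2-fold. RLE factors (810), library totals only (763), DESeq2 (819), a term per clone (827), sums per clone (854, where clone 3 is a single sum assumed to vary like the other clones) and clones 1, 2 and 4 together as the comparison (657) stayed within 1.5 times of 791. No named gene changed direction in any alternative. Of 791 calls, 790 were kept with RLE factors, 723 with DESeq2 and 786 without the clone 1 library of day A. With no filter the day dependence was called at 109 genes. Without that filter, chosen after seeing the data, 887 genes passed between clones 3 and 1, 998 between clones 3 and 2 and 89 between clones 1 and 2. With library totals only, clones 1 and 2 differed at 3 genes. The cause of these differences was not tested. The median CG count of genes near silence was 8 at under 1 CPM, and no value could be had at under 0.2 CPM. Day-dependent calls were not run with DESeq2. Depth limits genes of few counts, where a level of 0 is the limit of detection.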
